A study of Homo sapiens with 12 samples.

Results

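Interferon-stimulated genes were followed in the established human leukaemia line HL-60, whose cells resemble promyelocytes, during culture with the DNA-methylation inhibitor decitabine. The set held 46 genes chosen by symbol from general knowledge of the interferon response, when earlier results of these data were known, out of 60240 genes in the deposited table, and each of the 46 symbols was found there once. Wild-type cells were plated in duplicate at 100000 cells per mL and were given 100 nM decitabine at 0, 24 and 48 h or the vehicle DMSO, and RNA was taken at 6, 72 and 120 h. The groups were decitabine at 6 h (1 dose, 2 libraries) and DMSO at 6 h (2 libraries), decitabine at 72 h (3 doses, 2 libraries) and DMSO at 72 h (1 library), and decitabine at 120 h (3 doses, 2 libraries) and DMSO at 120 h (2 libraries). All groups were of 1 line and labelled wild type. Duplicates were wells of 1 line plated together, and the labels do not say that they were grown independently, so p-values reflect the spread among these wells alone, which may be technical.

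Interferons are secreted proteins that bind paired receptors at the cell surface. Receptors of type I and type III interferons act through the kinases JAK1 and TYK2 on STAT proteins such as STAT2, which join IRF9 and bind the interferon-stimulated response element, or ISRE, in the promoters of many stimulated genes. The products of the stimulated genes bind or degrade viral RNA, block entry and capsids, attach the ubiquitin-like protein ISG15 to other proteins and raise antigen processing. Myeloid cells respond to interferons and also make them after sensing nucleic acids. Decitabine enters DNA in place of deoxycytidine and captures the enzymes that methylate it. In other tumour lines it has been described as inducing genes of this kind.

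Most members whose promoters could be read held the core of the ISRE. The set was chosen as genes stimulated by interferon, many of which carry this element. An excess over all genes is thus tied to that choice and is no independent support. RefSeq promoter windows (GRCh38.p14, 250 bases before to 50 bases after a gene's start) were held for 37 of the 46 members and not for USP18, IRF7, IFIT2, OASL, LAMP3, MX2, TRIM22, IFITM2 and OAS2. The ISRE core was searched as GAAANNGAAA on both strands (TTTCNNTTTC on the other), with overlapping matches counted separately and any window of a gene allowed. It was present in 25 of 37 members (67.6%), against 1195 of 27305 genes with windows in the whole table (4.38%). It was found in all 4 members with a window among those that were higher with decitabine at 120 h, in 21 of the other 33 (63.6%), and in 9 of the 10 members with a window whose RNA stayed under the filter on low values. A match is a run of letters in the window and was not tested as a binding site. Members that rose and members that were not called both held it. CpG dinucleotides, the sites that DNA methyltransferases act on, numbered a median of 13 (range 0 to 45) in the members' windows, against 14 in the windows of all genes. Windows from 150 bases before to 10 bases after the start are shown for the 4 such members that were higher at 120 h, for ISG15, the ubiquitin-like modifier that gives the pathway its best-known marker, which was not called, and for IFIT1, an RNA-binding effector that stayed under the filter. They are written 5′ to 3′ on the strand of the gene, and capitals mark the GAAA or TTTC ends of a core.
LGALS3BP, chr17:78979914-78980073, minus strand: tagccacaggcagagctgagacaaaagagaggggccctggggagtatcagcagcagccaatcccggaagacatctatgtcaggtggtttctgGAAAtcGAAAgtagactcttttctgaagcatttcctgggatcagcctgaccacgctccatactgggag
PLSCR1, chr3:146544598-146544757, minus strand: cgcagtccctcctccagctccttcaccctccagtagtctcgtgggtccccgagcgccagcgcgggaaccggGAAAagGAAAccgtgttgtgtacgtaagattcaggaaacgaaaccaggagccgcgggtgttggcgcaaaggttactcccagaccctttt
PARP12, chr7:140062942-140063101, minus strand: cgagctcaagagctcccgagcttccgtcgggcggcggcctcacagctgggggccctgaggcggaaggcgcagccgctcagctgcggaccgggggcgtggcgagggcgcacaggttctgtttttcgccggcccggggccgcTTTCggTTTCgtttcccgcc
PSMB8, chr6:32844038-32844197, minus strand: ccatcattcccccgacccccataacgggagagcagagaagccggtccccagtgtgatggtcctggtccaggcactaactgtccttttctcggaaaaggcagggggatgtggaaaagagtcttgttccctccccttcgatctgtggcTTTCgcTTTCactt
ISG15, chr1:1013347-1013506, plus strand: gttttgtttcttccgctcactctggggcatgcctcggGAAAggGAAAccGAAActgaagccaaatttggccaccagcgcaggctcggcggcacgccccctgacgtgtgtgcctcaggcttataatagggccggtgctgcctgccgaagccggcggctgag
IFIT1, chr10:89392473-89392632, plus strand: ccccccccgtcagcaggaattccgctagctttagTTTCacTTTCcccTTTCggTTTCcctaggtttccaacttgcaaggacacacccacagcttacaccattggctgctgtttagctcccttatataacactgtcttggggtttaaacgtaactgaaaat
The first base of the core lay 58 bases before the start in LGALS3BP, 79 before it in PLSCR1, 10 before it in PARP12 and 4 before it in PSMB8. ISG15 had 2 overlapping cores, at 113 and 107 bases before the start, and IFIT1 had 2 that did not overlap, at 116 and 103 bases before it.

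**Figure D1:**
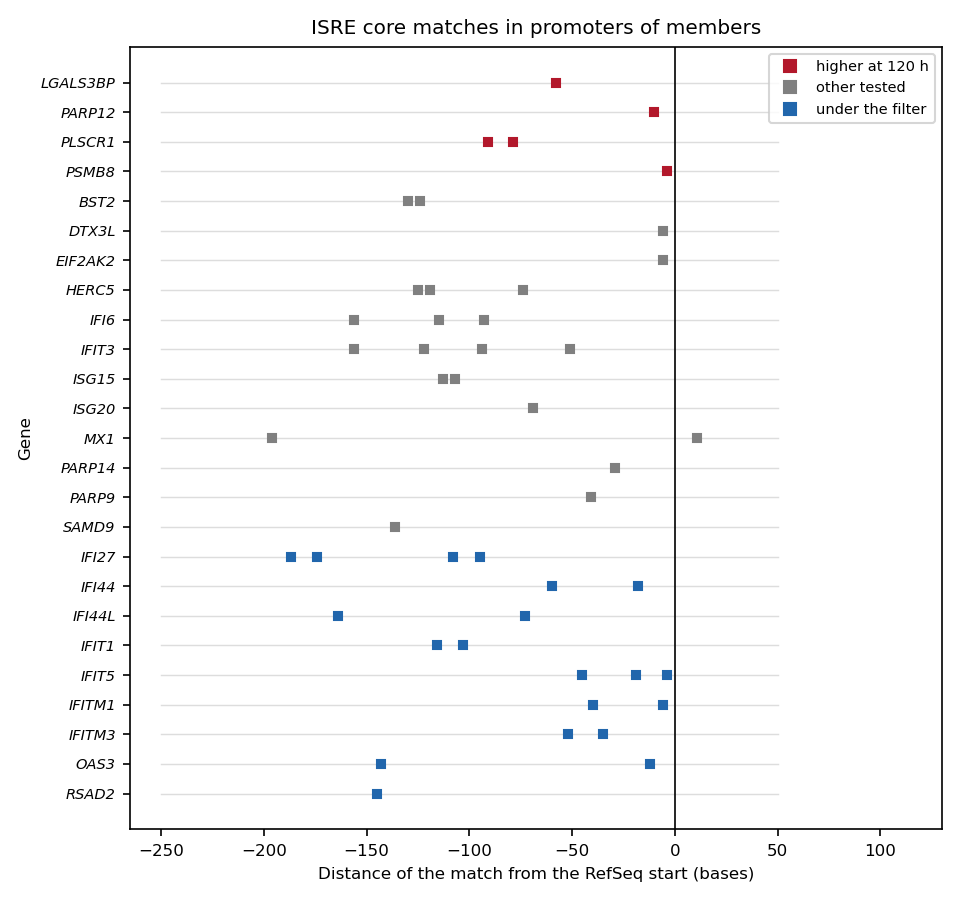
Position of each ISRE core match in the promoter windows of the 25 members that held one, in bases from the RefSeq start (a gene with several starts shows a match once for each start it was read from). Red squares are members that were higher at 120 h, grey squares other tested members and blue squares members under the filter, and all 3 classes held matches within 200 bases of the start.

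Values are normalised counts, the submitters' own scaling of each library, and are compared between libraries for 1 gene at a time and not between genes. Estimated depth was 14427331 to 32908419 counts per library, at which 1 count was worth 0.407 to 0.961 normalised counts. A gene was tested where at least 2 libraries reached 10 normalised counts, which 16152 genes and 33 of the 46 members did. Tests were limma's moderated test on log2(value + 1) over all 11 libraries, and a gene was called at a Benjamini-Hochberg adjusted p under 0.05 over the genes tested. The 2 decitabine libraries of 72 h lay apart from one another, with a median absolute log2 difference of 0.590 over genes, against 0.190 to 0.261 in the other 4 pairs of duplicates. They widen the spread that all comparisons share. The gene FP671120.7 held 5.25% of the summed values in replicate 1, 0.106% in replicate 2 and 0.0943% in DMSO at 72 h. Its share was 3.89 to 10.9% in the 120 h libraries and 0.0424 to 0.794% in the 6 h libraries. What this reflects was not tested. The genes that mark promyelocytes, the cells that HL-60 resembles, MPO, ELANE, AZU1, PRTN3, CTSG and CD33 were above 0 in every library, and the summed level of these 6 was 89803 to 141789 in the decitabine libraries and 114789 to 185207 in the DMSO libraries.

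At 120 h, 8 of the 33 tested members rose with decitabine and none fell, against 9.91% of all tested genes higher and 6% lower. In RNA from whole cultures, more cells of a type and more RNA per cell cannot be told apart. The 8 were LAMP3, LGALS3BP, IFITM2, PSMB8, PLSCR1, PARP12, IFIT2 and IRF7. Counts by role and by list at 120 h below are to be read against the same 9.91% higher and 6% lower. The median log2 fold change of the 33 was 0.83, against 0.07 over all tested genes. Above 0 were 8738 of the 16152 tested genes and 25 of the 33. Of these 33, 6 reached 10 in fewer than 2 DMSO libraries. ISG20 passed through 1 library of each treatment, and the other 5 (IFI6, LGALS3BP, IFITM2, PARP12 and IFIT2) through their decitabine libraries, which favours a higher value in decitabine. The last 4 of these are among the 8. Among the 27 members that reached 10 in at least 2 DMSO libraries, 4 rose (LAMP3, PSMB8, PLSCR1 and IRF7, 14.8%), against 8.32% of the 14311 genes that did so, and the median was 0.66 against 0.00. At 120 h the decitabine libraries lay above both DMSO libraries in 21 of the 33 (36.1% of all tested genes did) and below them in 5 (30.6%). Left out in turn, either decitabine library of 120 h gave 2 members called higher at that time (LAMP3 and LGALS3BP) in place of 8, against 3.66% and 3.95% of all genes higher, and either DMSO library of 120 h gave 3, against 5.58% and 5.17%. Leaving out decitabine 72 h replicate 1, decitabine 72 h replicate 2 or all 3 libraries of 72 h gave 15 members each, against 15.9%, 16% and 16.2% of all genes, the last an alternative chosen after seeing the data.

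**Figure D2:**
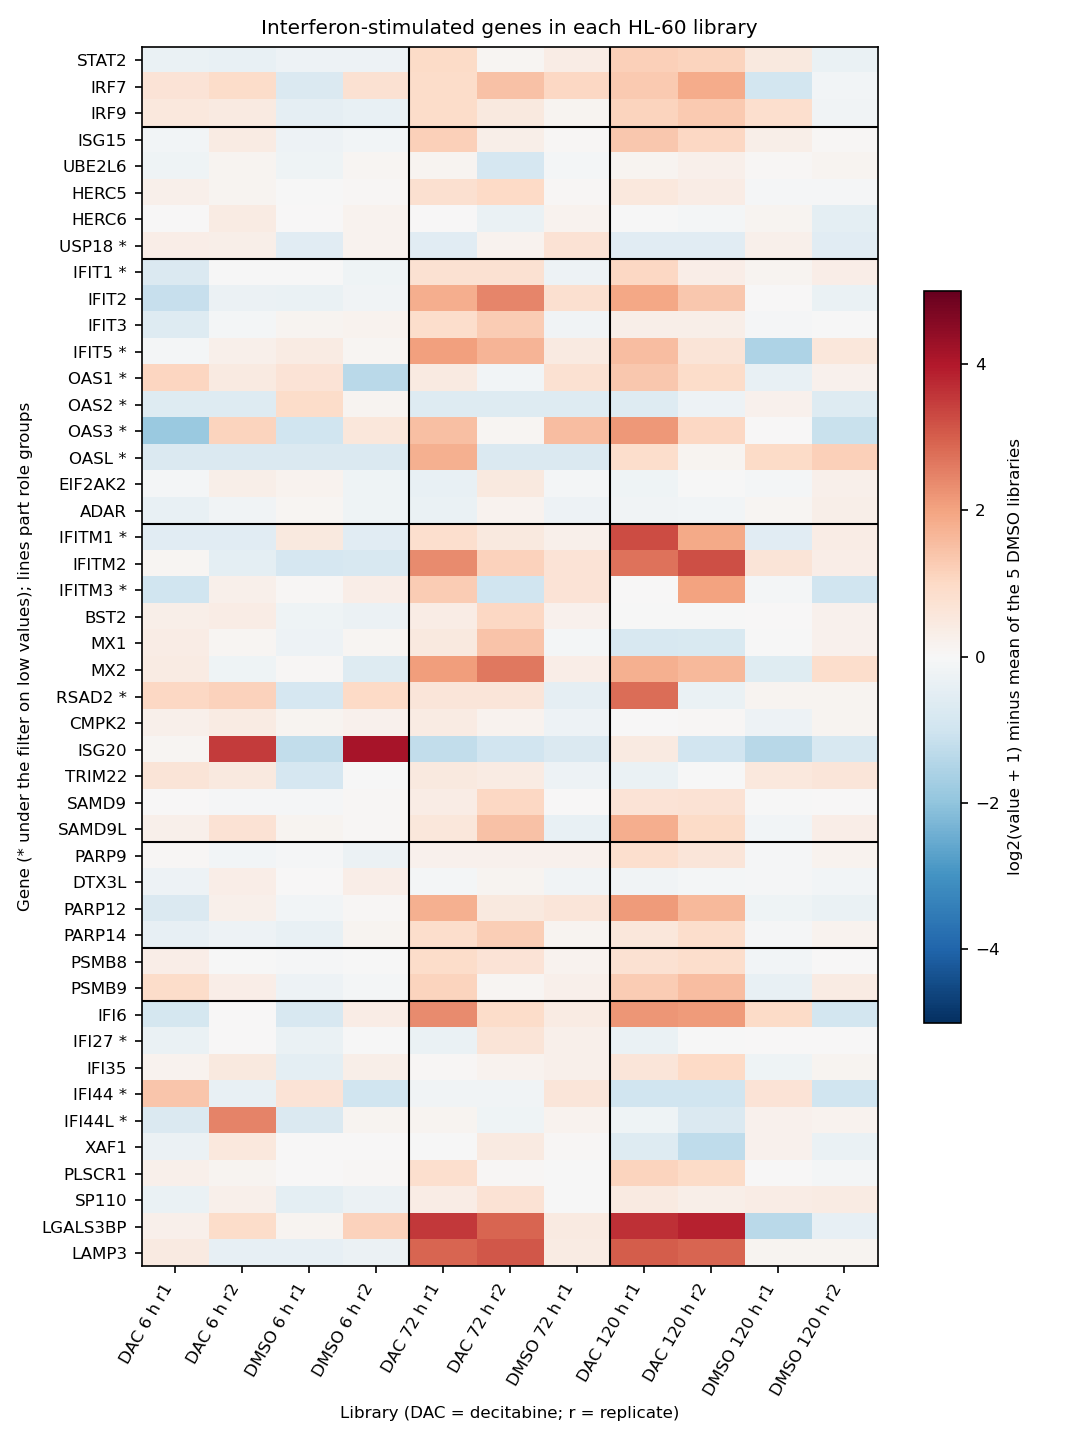
Level of the 46 members in each of the 11 libraries, as log2(value + 1) minus the mean of that quantity over the 5 DMSO libraries, with genes in rows by role and libraries in columns by time. LAMP3 and LGALS3BP are red in the 4 decitabine libraries of 72 and 120 h, and ISG20 is red in replicate 2 of both groups at 6 h.

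At 6 h, after 1 dose, no member was called by limma. Of the 33 tested members, 3 had an unadjusted p under 0.05 and the smallest adjusted p was 1. No gene of the whole table was called either (0%), and 541 of 16152 had an unadjusted p under 0.05. The decitabine libraries lay above both DMSO libraries in 10 members (18.2% of all genes did) and below them in 2 (20.8%). The members' median log2 fold change was 0.15, against -0.01 over all genes. At 72 h, 1 member rose, LAMP3, and none fell, against 1.88% of all genes higher and 0.31% lower. The median was 0.54, against 0.09 over all genes, and 28 of the 33 members had a fold change above 0 (8968 of 16152 genes did). Both decitabine libraries lay above the DMSO library in 21 members (37.5% of all genes did) and below it in 3 (27.6%). With 1 DMSO library at 72 h, the SE of the shared fit is larger at this time than at 120 h (0.40 against 0.33 for LAMP3). Set against all 5 DMSO libraries instead, the decitabine libraries of 72 h were called higher in 10 members, against 8.68% of all genes. Left out in turn, replicate 1 of decitabine at 72 h gave a count of 10, against 16.8% of all genes, and replicate 2 a count of 2, against 2.87%. Either decitabine library of 120 h gave 0 when left out, against 0.784% and 0.8% of all genes.

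The effect of decitabine at 120 h exceeded that at 6 h in LAMP3 and LGALS3BP and lay below it in TRIM22, by the interaction term of the same fit. The background of that test was 4.27% of genes higher and 1.63% lower. With 1 library left out in turn, libraries of 6 or 120 h in each case, the call was lost in 4 of 11 fits for LGALS3BP and in 7 of 11 for LAMP3 and for TRIM22. In DMSO cultures alone, no member and no gene differed between 120 and 6 h at an adjusted p under 0.05, and 4 of the 33 members and 865 of all genes did so at an unadjusted p under 0.05. The members' median difference over culture time in DMSO was 0.12, against -0.01 over all genes. Of the 33 tested members, the mean of the decitabine libraries was highest at 120 h in 15, at 72 h in 13 and at 6 h in 5. The same split was not counted over all genes.

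**Figure D3:**
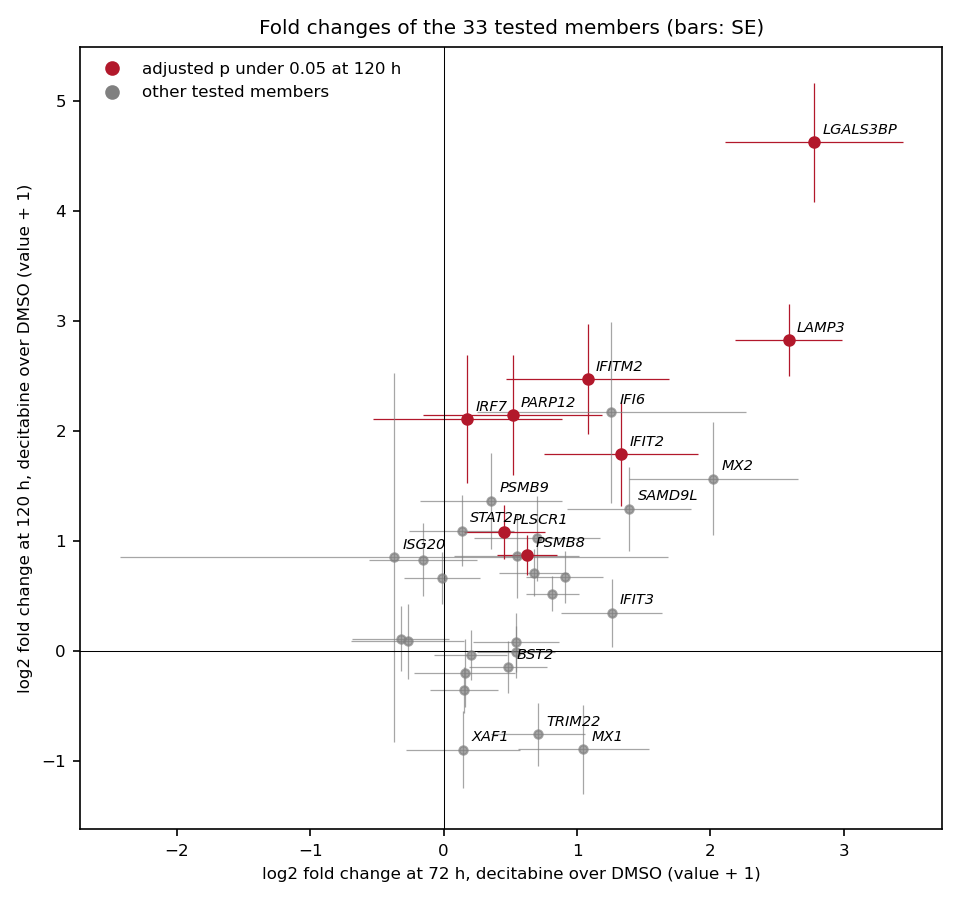
Log2 fold change of decitabine over DMSO at 72 h (horizontal) and at 120 h (vertical) for the 33 tested members, with SE bars from the shared fit and red for members with an adjusted p under 0.05 at 120 h. LGALS3BP and LAMP3 stand apart at the upper right. Every member below 0 at 120 h, MX1 and TRIM22 among them, lies above 0 at 72 h. None of the members below 0 at 120 h has an adjusted p under 0.05 at either time.

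Among the transcription factors of the pathway, IRF7, the factor that drives interferon-alpha genes and is itself induced by interferon, had normalised counts of 10.7 and 12.9 at 6 h, 13 and 19.3 at 72 h, and 17 and 25.7 at 120 h in decitabine cultures, against 3.45 and 11.5 at 6 h, 13.9 at 72 h, and 2.87 and 5.68 at 120 h in DMSO cultures. It lies at chr11:612553-615999 on the minus strand (GENCODE v29, GRCh38, which also gives the positions below). The decitabine libraries of 120 h lay above both DMSO libraries of that time, while at 72 h the DMSO library fell between the decitabine libraries. IRF7 rose at 120 h by a log2 fold change of 2.11 ± 0.58 (SE, limma adjusted p = 0.0412), the highest adjusted p of the 8, and its DMSO libraries of 120 h held only a few counts each. STAT2, a STAT protein of the type I response, had 801 and 767 normalised counts with decitabine at 120 h, against 486 and 277 with DMSO, a log2 fold change of 1.09 ± 0.32 (SE, limma adjusted p = 0.0535). IRF9, its DNA-binding partner, had 42.2 and 48.5 with decitabine at 120 h, against 34.9 and 16.9 with DMSO, and neither passed the test. Of the 50-base windows of IRF9 transcripts, 43.6% also occur in another gene (1807 of 4143), nearly all of them in AL136295.5 (1789), annotated over it on the same strand, so that its counts may be split.

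Of ISG15 and the enzymes that attach or remove it, none of the 4 tested members was called at any time. HERC5, the main ligase for ISG15 in human cells, had normalised counts of 357 and 331 at 6 h, 526 and 593 at 72 h, and 436 and 390.4 at 120 h in decitabine cultures, against 299.9 and 313 at 6 h, 317 at 72 h, and 287 and 287 at 120 h in DMSO cultures. Its decitabine libraries lay above the DMSO libraries at each of the 3 times, by a log2 fold change of 0.82 ± 0.20 (SE, limma adjusted p = 0.0781) at 72 h and 0.52 ± 0.16 (SE, limma adjusted p = 0.0619) at 120 h, and neither passed the threshold. ISG15 itself had normalised counts of 19 and 28.5 at 6 h, 49.9 and 26.3 at 72 h, and 56.1 and 44.2 at 120 h in decitabine cultures and 17.3 and 19.3 at 6 h, 22 at 72 h, and 26.4 and 21.7 at 120 h in DMSO cultures, with a log2 fold change of 1.03 ± 0.39 (SE, limma adjusted p = 0.113) at 120 h. UBE2L6, the conjugating enzyme, and HERC6 had log2 fold changes of 0.09 and 0.11 at 120 h, with intervals (95%) of -0.70 to 0.88 and -0.57 to 0.80. USP18, which removes ISG15 and dampens the type I receptor, did not exceed 1.5 normalised counts in any library.

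Among the effectors that bind, cut or edit RNA, 4 of 10 were tested and 1 rose. IFIT2, a member of the IFIT family that restricts viral and cellular translation, had normalised counts of 2.39 and 5.1 at 6 h, 25.3 and 40.4 at 72 h, and 27.5 and 18.5 at 120 h in decitabine cultures, against 5.01 and 5.74 at 6 h, 12.1 at 72 h, and 6.66 and 5.04 at 120 h in DMSO cultures. It lies at chr10:89283694-89309276 on the plus strand. Decitabine libraries were above DMSO libraries at 72 and 120 h and overlapped them at 6 h, and the log2 fold change at 120 h was 1.79 ± 0.47 (SE, limma adjusted p = 0.0361). Of its transcript windows, 7.50% are shared with AL353751.1, annotated on the same strand. IFIT3, its partner in IFIT complexes, was highest at 72 h, with 45.8 and 60.9 normalised counts with decitabine, against 21.5 with DMSO. At 120 h IFIT3 had 29.9 and 30.7 with decitabine and 23.2 and 23.9 with DMSO, and no comparison passed the test. EIF2AK2, the kinase PKR that halts translation on double-stranded RNA, and ADAR, which edits it, had log2 fold changes at 120 h of -0.20 and -0.36, with intervals (95%) of -0.90 to 0.51 and -0.83 to 0.12.

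The other 6 genes of this role, IFIT1, IFIT5, OAS1, OAS2, OAS3 and OASL, stayed under the filter. IFIT1, among the most strongly induced genes of a type I response in many cells, had normalised counts of 2.59 and 4.9 at 6 h, 9.02 and 9.01 at 72 h, and 11.2 and 6.43 at 120 h in decitabine cultures, against 4.82 and 4.14 at 6 h, 4 at 72 h, and 5.6 and 6.45 at 120 h in DMSO cultures. Both decitabine libraries of 72 h were above the DMSO library, and at 120 h the groups overlapped. OAS3, a synthetase of the signal that activates RNase L, reached 14.9 in decitabine 120 h replicate 1, the highest value of any member under the filter. OAS2 and OASL were at or under 1.91 and 4.67 normalised counts in all libraries.

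Among the blockers of entry, capsids and replication, 9 of 12 were tested and 1 rose. IFITM2, a membrane protein that hinders viral fusion, had normalised counts of 5.95 and 3.68 at 6 h, 32.2 and 13.6 at 72 h, and 41.5 and 59.4 at 120 h in decitabine cultures, against 2.61 and 2.68 at 6 h, 9.41 at 72 h, and 9.1 and 7.22 at 120 h in DMSO cultures. It lies at chr11:307631-315272 on the plus strand. IFITM1 is annotated within that span on the same strand, over 1767 bases, and IFITM3 lies next to them. Decitabine libraries were above DMSO libraries at each time, and the rise at 120 h was a log2 fold change of 2.47 ± 0.50 (SE, limma adjusted p = 0.013), or 6.18-fold between the means. Of its transcript windows, 34.1% also occur in another gene (496 of 1453), most often in IFITM1 (314), and no source used here says how shared reads were counted, so the split between these genes is uncertain. IFITM1 had 13.3 and 4.45 normalised counts with decitabine at 120 h, against 0 and 0.892 with DMSO, and IFITM3 had 1.05 and 7.09 with decitabine at 120 h, against 0.883 and 0 with DMSO, both under the filter.

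MX2, a capsid blocker, had normalised counts of 27.2 and 17.2 at 6 h, 89.4 and 132 at 72 h, and 71.6 and 63.7 at 120 h in decitabine cultures, against 21.3 and 12.4 at 6 h, 25.9 at 72 h, and 12.8 and 37.6 at 120 h in DMSO cultures. Its decitabine libraries were above the DMSO libraries at 72 and 120 h, by log2 fold changes of 2.02 ± 0.63 (SE, limma adjusted p = 0.148) and 1.57 ± 0.52 (SE, limma adjusted p = 0.0772), and neither passed the test. Its neighbour MX1 had 23.1 and 45.7 with decitabine at 72 h, against 15.2 with DMSO, and 8.79 and 9.29 with decitabine at 120 h, against 16.2 and 19.2 with DMSO, so the groups did not overlap at either time and the order differed. BST2, the tether that holds budding virus at the membrane, had 184 and 287 with decitabine at 72 h, against 164 with DMSO, and 140.0 and 140.1 with decitabine at 120 h, against 145 and 166 with DMSO. None of the MX1 and BST2 comparisons passed the test.

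TRIM22, a nuclear TRIM protein that restricts viral transcription, had the smallest p of the members at 6 h and changed its order over time. It had normalised counts of 136 and 121 at 6 h, 124 and 115 at 72 h, and 69.3 and 84.8 at 120 h in decitabine cultures, against 47.6 and 84.7 at 6 h, 72.5 at 72 h, and 126 and 134 at 120 h in DMSO cultures. Decitabine libraries were above DMSO libraries at 6 and 72 h and below them at 120 h. The log2 fold changes of 1.00 ± 0.29 (SE, limma adjusted p = 1) at 6 h and -0.76 ± 0.29 (SE, limma adjusted p = 0.118) at 120 h did not pass the test, while their difference did, with an interaction term of -1.76 ± 0.41 (SE, limma adjusted p = 0.0437). The fits that lost it left out either decitabine library of 6 h, DMSO 6 h replicate 1, or any library of 120 h. TRIM22 overlaps TRIM5 on the other strand over 47401 bases, and no source used here says whether the counting used strand.

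The remaining genes of this role were SAMD9 and SAMD9L, antiviral proteins encoded side by side, RSAD2 and CMPK2, which act on nucleotides in viral replication, and ISG20, an exonuclease. SAMD9L had 399.7 and 224 normalised counts with decitabine at 120 h, against 103 and 143 with DMSO, a log2 fold change of 1.30 ± 0.38 (SE, limma adjusted p = 0.0535). SAMD9 had 1698 and 1737 with decitabine at 120 h, against 1027 and 1069 with DMSO, a log2 fold change of 0.71 ± 0.21 (SE, limma adjusted p = 0.0566). Both lay just above the threshold, beside STAT2 and HERC5, and PARP12, IFIT2 and IRF7 just under it. RSAD2, known as viperin, stayed under the filter and had 11.3 and 0.43 with decitabine at 120 h, against 0.965 and 0.972 with DMSO.

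Among the ADP-ribosylation genes, 1 of 4 rose. PARP12, a mono-ADP-ribosyltransferase that blocks viral translation, had normalised counts of 3.82 and 8.6 at 6 h, 26.3 and 10.2 at 72 h, and 33.9 and 23.9 at 120 h in decitabine cultures, against 6.27 and 7.43 at 6 h, 11.2 at 72 h, and 5.96 and 5.36 at 120 h in DMSO cultures. It lies at chr7:140023744-140063721 on the minus strand. The groups overlapped at 6 and 72 h and were apart at 120 h, with a log2 fold change of 2.15 ± 0.55 (SE, limma adjusted p = 0.0322), or 5.1-fold between the means. PARP9, PARP14 and DTX3L, which is the ligase partner of PARP9, had log2 fold changes at 120 h of 0.66, 0.67 and -0.04, and none passed the test.

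Both immunoproteasome subunits were tested and 1 rose. PSMB8, which replaces a constitutive subunit of the proteasome and alters the peptides cut for MHC class I, had normalised counts of 540.2 and 416 at 6 h, 806 and 681 at 72 h, and 725 and 773 at 120 h in decitabine cultures, against 414 and 423 at 6 h, 479.7 at 72 h, and 389 and 427 at 120 h in DMSO cultures. It lies at chr6:32840717-32844703 on the minus strand, in the MHC region. Both decitabine libraries were above the DMSO libraries at 72 and 120 h, and the log2 fold change at 120 h was 0.87 ± 0.18 (SE, limma adjusted p = 0.0145), or 1.83-fold between the means, the smallest of the 8. PSMB9, which overlaps its start on the other strand, had 50.9 and 62.6 with decitabine at 120 h, against 16 and 28.2 with DMSO, a log2 fold change of 1.37 ± 0.44 (SE, limma adjusted p = 0.0703). PSMB8 also overlaps the antisense gene PSMB8-AS1 over 618 bases, whose reads could not be told apart from it if strand was not used.

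**Figure D4:**
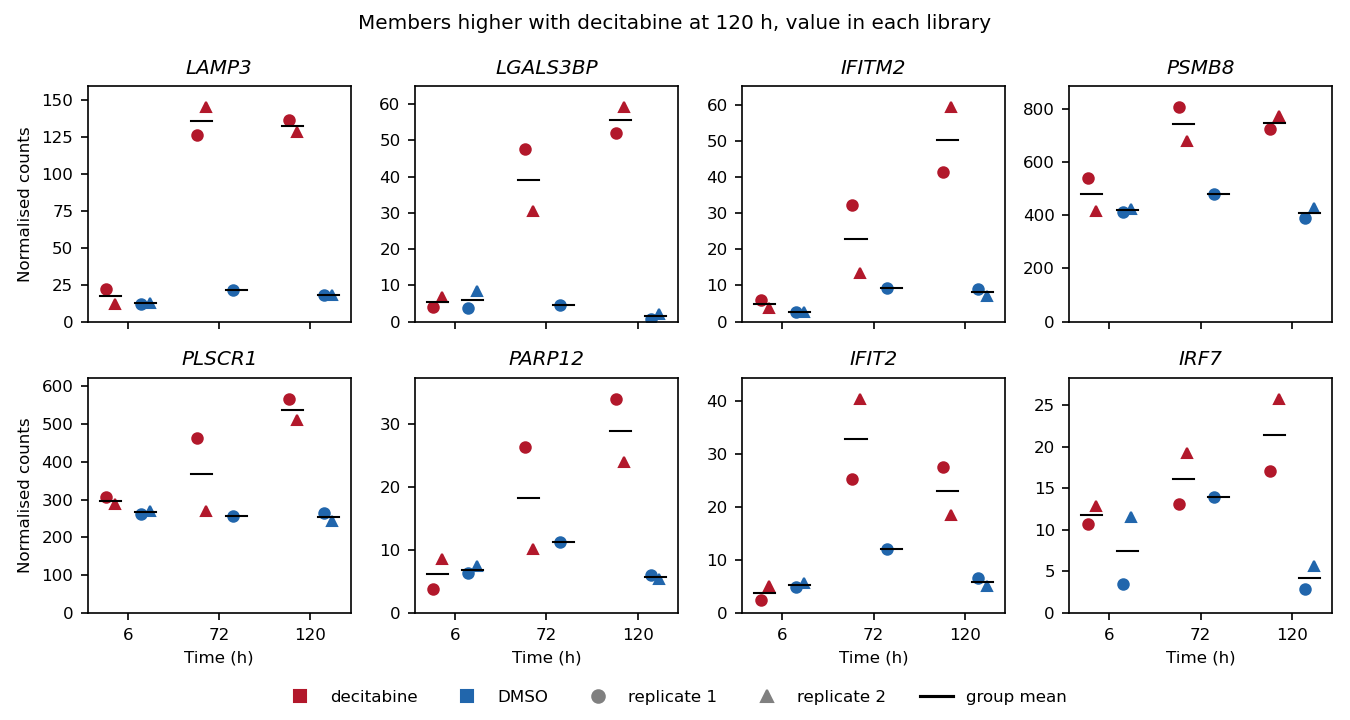
Normalised counts of the 8 members higher at 120 h in each library by time, with decitabine in red left of DMSO in blue, circles and triangles for replicates 1 and 2, and black lines for group means (n = 2, or 1 for DMSO at 72 h). In every panel both decitabine libraries of 120 h lie above all DMSO libraries.

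Of the IFI genes and other induced genes, 7 of 10 were tested and 3 rose, among them the largest changes of the set. LAMP3, a lysosomal membrane protein known from mature dendritic cells and induced by interferon, had normalised counts of 22.1 and 11.9 at 6 h, 126 and 145 at 72 h, and 136 and 128 at 120 h in decitabine cultures, against 11.9 and 12.9 at 6 h, 21.7 at 72 h, and 17.7 and 17.9 at 120 h in DMSO cultures. It lies at chr3:183122213-183163839 on the minus strand. The groups overlapped at 6 h and stood far apart at 72 and 120 h, by 6.25-fold and 7.45-fold between the means. The log2 fold changes were 2.59 ± 0.40 (SE, limma adjusted p = 0.0166) at 72 h and 2.83 ± 0.33 (SE, limma adjusted p = 0.00111) at 120 h, and the interaction term was 2.46 ± 0.46 (SE, limma adjusted p = 0.0213). LAMP3 was called at 120 h in all 22 alternatives, whereas at 72 h the call was lost in 4 of 21, with limma adjusted p = 0.147 with array weights, 0.676 with only the libraries of 72 h, 0.0548 without decitabine 120 h replicate 1 and 0.0553 without decitabine 120 h replicate 2.

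LGALS3BP, a secreted glycoprotein that binds galectins, had normalised counts of 3.95 and 6.81 at 6 h, 47.5 and 30.4 at 72 h, and 52.1 and 59.1 at 120 h in decitabine cultures, against 3.62 and 8.31 at 6 h, 4.69 at 72 h, and 0.651 and 2.18 at 120 h in DMSO cultures. It lies at chr17:78971238-78980109 on the minus strand. The groups overlapped at 6 h and were apart at 72 and 120 h, with log2 fold changes of 2.78 ± 0.67 (SE, limma adjusted p = 0.077) at 72 h, which missed the threshold, and 4.62 ± 0.54 (SE, limma adjusted p = 0.00121) at 120 h. The DMSO libraries of 120 h held about 0.82 and 2.71 estimated counts. Over estimated counts rounded to whole numbers, 153 with decitabine and 4 with DMSO, the ratio of rates at 120 h was 34.8 with an exact interval (95%) of 13.3 to 129, which covers counting error only. The interaction term was 4.70 ± 0.77 (SE, limma adjusted p = 0.0128).

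PLSCR1, a phospholipid scramblase that limits viral entry, had normalised counts of 306 and 287 at 6 h, 464 and 270.1 at 72 h, and 566 and 509 at 120 h in decitabine cultures, against 263 and 271 at 6 h, 258 at 72 h, and 264 and 243 at 120 h in DMSO cultures. It lies at chr3:146515180-146544864 on the minus strand. At 72 h replicate 1 of decitabine was high and replicate 2 was close to DMSO, and at 120 h both were high, with a mean 2.12 times the DMSO mean and a log2 fold change of 1.08 ± 0.25 (SE, limma adjusted p = 0.0207). IFI6, a mitochondrial and endoplasmic-reticulum protein, had 15 and 14.2 with decitabine at 120 h, against 5.61 and 0.807 with DMSO, a log2 fold change of 2.17 ± 0.82 (SE, limma adjusted p = 0.115). XAF1, a pro-apoptotic protein, had 92 and 60.1 with decitabine at 120 h, against 169 and 115 with DMSO, a log2 fold change of -0.90 ± 0.35 (SE, limma adjusted p = 0.127), neither past the test. IFI35 and SP110 had log2 fold changes of 0.83 and -0.01 at 120 h and were not called.

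IFI27, IFI44 and IFI44L, which head many interferon signatures of blood, stayed under the filter. IFI27 did not exceed 0.927 normalised counts, and IFI44 did not exceed 4.11. IFI44L reached 8.17 in decitabine 6 h replicate 2 and lay under 1 in each of the other 10 libraries. In all, 13 of the 46 members were under the filter, 12 of them with 0 in at least 1 library, and they enter no test and no median. The set thus held genes near the floor in all groups beside genes such as PSMB8, PLSCR1 and HERC5 that were well above it in DMSO.

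Genes upstream of the set were read from lists of interferon ligands, receptors, signalling genes, nucleic-acid sensors and other interferon-induced genes, 124 of which were in the table. The lists were drawn up with earlier results of these data known. Of 22 interferon genes, 9 were above 0 in any library, none in more than 2 libraries, and the highest value was 1.42 normalised counts, so no change in a ligand was detectable at this depth. Of 5 tested receptor genes, 2 rose at 120 h (9.91% of all tested genes did) and none fell. IFNGR2, the signalling chain of the interferon-gamma receptor, had 1100.1 and 1193 normalised counts with decitabine at 120 h, against 492 and 569 with DMSO, a log2 fold change of 1.11 ± 0.18 (SE, limma adjusted p = 0.00481).

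Of 11 tested JAK-STAT and IRF genes, 4 rose and 1 fell at 120 h (9.91% and 6% of all tested genes did). IRF2, an IRF that binds the same element, had 824 and 838 normalised counts with decitabine at 120 h, against 392 and 332 with DMSO, a log2 fold change of 1.20 ± 0.16 (SE, limma adjusted p = 0.00231). IRF8, a myeloid transcription factor, fell at both later times. It had normalised counts of 809 and 914 at 6 h, 294 and 379 at 72 h, and 176 and 191 at 120 h in decitabine cultures, against 1028 and 1044 at 6 h, 949 at 72 h, and 1030.1 and 1008 at 120 h in DMSO cultures, with log2 fold changes of -1.50 ± 0.21 (SE, limma adjusted p = 0.0125) at 72 h and -2.47 ± 0.17 (SE, limma adjusted p = 0.000119) at 120 h.

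Of 15 tested nucleic-acid sensing genes, 4 rose and 2 fell at 120 h (9.91% and 6% of all tested genes did). TLR8, the endosomal receptor of single-stranded RNA, had normalised counts of 103 and 108 at 6 h, 383 and 297 at 72 h, and 742 and 764 at 120 h in decitabine cultures, against 122 and 114 at 6 h, 133 at 72 h, and 112 and 109.5 at 120 h in DMSO cultures. It rose by log2 fold changes of 1.34 ± 0.23 (SE, limma adjusted p = 0.0274) at 72 h and 2.75 ± 0.19 (SE, limma adjusted p = 0.000109) at 120 h. AIM2, a cytosolic sensor of DNA, had normalised counts of 3.49 and 2.57 at 6 h, 23 and 47.3 at 72 h, and 85 and 84.4 at 120 h in decitabine cultures, against 2.58 and 1.86 at 6 h, 1.32 at 72 h, and 0.546 and 5.4 at 120 h in DMSO cultures, and its log2 fold change at 120 h was 4.77 ± 0.69 (SE, limma adjusted p = 0.00307). The DMSO libraries of AIM2 were at a few counts or fewer, so its fold is poorly bounded.

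Of 52 other interferon-induced genes tested, 15 rose and 3 fell at 120 h (9.91% and 6% of all tested genes did). The MHC class I heavy chains HLA-C, HLA-E and HLA-B rose. HLA-C had 7974 and 8275 normalised counts with decitabine at 120 h, against 2681 and 3051 with DMSO. HLA-C, HLA-E and HLA-B had log2 fold changes of 1.51, 1.80 and 1.40 at 120 h, with limma adjusted p of 0.000472, 0.000767 and 0.00379. Reads of these related genes may be split among them, which was not measured. IFI30, the thiol reductase of lysosomal antigen processing, had 2701 and 2829 with decitabine at 120 h, against 263 and 343 with DMSO, a log2 fold change of 3.20 ± 0.18 (SE, limma adjusted p = 6.66e-05). TRIM38, a regulator of innate signalling, rose by a log2 fold change of 1.12 ± 0.14 (SE, limma adjusted p = 0.00169) at 120 h. LGALS9, a secreted galectin, fell to 268 and 244 with decitabine at 120 h, against 728 and 626 with DMSO, a log2 fold change of -1.40 ± 0.20 (SE, limma adjusted p = 0.00269).

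**Figure D5:**
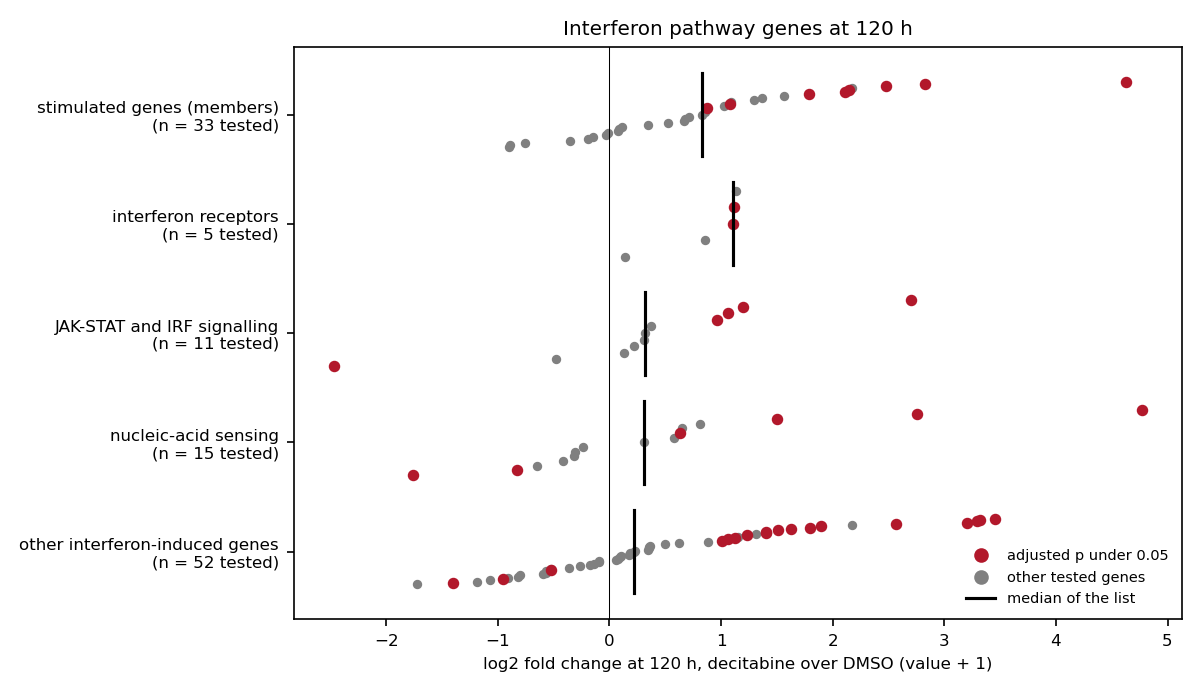
Log2 fold change of decitabine over DMSO at 120 h for the tested genes of each list, with red for an adjusted p under 0.05 and a black line for the list's median. The members' median is 0.83, against 1.11 for 5 receptors, 0.31 for signalling genes, 0.31 for sensors and 0.22 for the other induced genes.

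Markers of later myeloid stages moved in the same libraries. The summed level of 10 late neutrophil markers was 38081 and 40579 normalised counts with decitabine at 120 h, against 6914 and 7299 with DMSO, and 5 of the 10 rose (S100A8, S100A9, S100A12, FCGR3B and MMP9) while MMP8 fell. The summed level of 7 monocyte and macrophage markers, nearly all of it LYZ, was 274660 and 277376 with decitabine at 120 h, against 109686 and 120983 with DMSO. Of the 6 tested, 4 rose, CD14, CSF1R and LYZ among them, and 1 fell, MS4A7. For 7 conventional dendritic markers the summed level was 431.6 and 444 with decitabine at 120 h, against 565 and 574 with DMSO. Most of this sum was FLT3, which was not called. Of the other conventional dendritic markers, CCR7, a marker of mature dendritic cells, was at 0 in all 11 libraries and XCR1 in 9, while CLEC9A rose. For 5 plasmacytoid dendritic markers the sum, most of it TCF4, was 185 and 248 with decitabine at 120 h, against 219 and 224 with DMSO. None of the 5 was called. The sums of 7 lymphocyte markers were 367 and 441 with decitabine at 120 h, against 78.2 and 79.3 with DMSO, of which CD3D and NKG7 rose and CD3E, CD2 and MS4A1 were at 0 in 6 to 9 libraries. The sums of 9 epithelial and stromal markers were 1836 and 1914 with decitabine at 120 h, against 464 and 527 with DMSO, nearly all of it PECAM1, which rose, and CDH5 was at 0 in 10 libraries. The part of these shifts in the members' values was not tested.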

How the data were processed

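RNA of HL-60 cells was sequenced from 12 samples as single-end reads of 50 bases from stranded libraries depleted of ribosomal RNA, per the labels' protocols. The deposited values are a normalised count signal per gene and library, made by the authors, and hg38, DESeq2, limma, featureCounts, STAR and Salmon 1.2.1 are named in the submitters' processing notes without saying what each did. The values are not whole counts: of the low values of a library, 59.4 to 65.5% came within 0.01 of a multiple of its step, so no count model was run. The header names 12 libraries over 11 columns of values, and its first name was taken to stand over the gene symbol, which leaves DMSO 72 h replicate 2 not analysed here. In that reading, duplicates differed by 0.299 (median absolute log2 difference, averaged) and groups by 0.439, against 0.429 and 0.426 in the other.

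Values were taken as log2(value + 1), a gene needed 10 or more in 2 or more libraries (16152 did), and limma 3.58.1 (R 4.3.3, trend) was fitted with 1 mean per group on 11 libraries, with 5 residual degrees of freedom (8.4 with those borrowed across genes). DMSO at 72 h, with 1 library, is taken to vary as the other groups do. Fold changes are on that scale, which shrinks those of low genes. Genes were called at a Benjamini-Hochberg adjusted p under 0.05 over all genes tested, two-sided. The script was tested on simulated data. Members and pathway lists were chosen with earlier results of these data known, and the lists are no independent support. Named with all values were members called at any time, the member with the smallest p at 120 h in a role group with none, the member with the smallest p at 6 h, and, of the pathway genes called, the 12 with the smallest p at 120 h. STAT2, ISG15, the IFIT, IFITM, MX and SAMD9 genes and other members outside that rule were added after their values were seen. Some genes of the lists are not reported here. Positions came from GENCODE release 29 (GRCh38), promoters from RefSeq (GRCh38.p14), and plots were drawn with matplotlib 3.10.9. Alternatives were other pseudocounts, filters, scalings, weights and sets of libraries, each library left out, and the replicate number as a block.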

Additional observations from a re-analysis of the deposited data

Results flagged for a closer look

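The effect of decitabine differed between 120 h and 6 h, by the interaction term of limma adjusted over all genes, in 3 members. Of the 33 tested, 2 were higher and 1 lower, against 4.27% and 1.63% of all genes. Among the 27 members that reached 10 in at least 2 DMSO libraries, 1 was higher and 1 lower (3.7% each). Of all genes that did so, 3.66% were higher and 1.83% lower. The difference (log2 fold change at 120 h minus that at 6 h) was 4.70 in LGALS3BP (adjusted p = 0.0128), 2.46 in LAMP3 (adjusted p = 0.0213) and -1.76 in TRIM22 (adjusted p = 0.0437). Of the 83 pathway genes tested, 13 were higher and 1 lower by the same term, against 4.27% and 1.63% of all genes. Among those named, 10 met the test. They were named for a small p at 120 h, a comparison that the term contains, so their passing is no separate support. The difference was 4.45 in AIM2, 3.06 in IFI30, 2.91 in TLR8, 1.67 in HLA-E, 1.60 in IRF2, 1.45 in HLA-B, 1.27 in HLA-C, 1.12 in IFNGR2 and 1.01 in TRIM38, and it was -2.20 in IRF8, with adjusted p from 0.00127 to 0.0398. Groups of 2 libraries do not allow a search for single libraries that stand apart.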

How the results depend on the processing

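The count of members higher at 120 h, 8 as reported, was 5 of 46 with no filter on low values (4.19% of all genes), 18 with limma's array weights (16.8%), 13 with only the libraries of 120 h (14.4%), 15 without the 3 libraries of 72 h (16.2%, chosen after seeing the data) and 2 to 15 with 1 library left out (3.66 to 16%); the fall of none became 2 with quantile normalisation (MX1 and TRIM22; 9.07% of all genes) and 1 with only the libraries of 120 h (TRIM22; 11.9%). At 72 h the count of 1 was 2 with a pseudocount of 10 (2.07% of all genes), 0 with array weights (0.464%), 0 with only the libraries of 72 h (0%), 10 with all DMSO libraries set against decitabine (8.68%) and 0 to 10 with 1 library left out (0.784 to 16.8%); no fit was possible without the DMSO library of 72 h. For the change of effect between 6 and 120 h, the 2 higher members were 8 with array weights (10.7% of all genes), 6 with only the libraries of these times (9.83%), 6 without the 3 libraries of 72 h (10.2%) and 0 to 7 with 1 library left out (1.17 to 10.1%). The lower call of TRIM22 was lost with no filter, where calls of all genes lower also went from 1.63% to 0.335%. It was lost too without a trend and with the replicate block. Over all alternatives its interaction term was -2.17 to -1.35. At 6 h, and between times in DMSO, the count of members called was 0 under every alternative run. With the replicate number as a block, PARP14 and STAT2 were also called higher at 120 h and IFIT2 was not. Calls over all genes moved with the setting too, so this is no result about the set. Over all tested genes, the differences between replicates 1 and 2 were hardly correlated between decitabine and DMSO (r = 0.0257 at 6 h and 0.0258 at 120 h). This does not settle whether the numbers pair wells. At 6 h some genes, ISG20 among them, differed by replicate number in both groups. Quantile normalisation shifted the median of all genes at 120 h by -0.17, to -0.10, with the members at 0.51. No fold change of a named gene that was called changed sign. Single calls at 120 h held in 22 of 22 alternatives for LAMP3 and LGALS3BP, 18 of 22 for PLSCR1 and PSMB8, 17 of 21 for IFITM2, 13 of 21 for IRF7 and PARP12 and 12 of 21 for IFIT2. The change of effect between times held in 18 of 22 alternatives for LGALS3BP and 15 of 22 for LAMP3. The cause of these differences was not tested. Depth limits the 13 members under the filter, which had at most 20.08 estimated counts in a library, and the ligands, which had at most 1.42 normalised counts.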

Other observations

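ISG20, an interferon-induced exonuclease, had 2.42 and 34.7 normalised counts in replicates 1 and 2 of decitabine at 6 h, against 0.371 and 54.7 in replicates 1 and 2 of DMSO at 6 h, and at most 3.38 in the other 7 libraries. It was high in replicate 2 of both groups, and its log2 fold change at 6 h was 0.34. On the scale of value + 1, the lower replicate 2 was 10.4 times the higher replicate 1. Of the 16152 tested genes, 19 had both replicates 2 of 6 h at least 8 times above both replicates 1, and 4 had the opposite. This pattern was noticed in the values, and what it reflects was not tested.

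Log2 fold changes of some members encoded side by side are set together here. There were 15 neighbouring pairs of members within 200000 bases of one another, and those below were picked after their values were seen. MX2 and MX1 lie 10914 bases apart, and their log2 fold changes at 120 h were 1.57 and -0.89. IFIT2 and IFIT3 lie 18618 bases apart, with 1.79 and 0.35. PARP9 and DTX3L overlap at their starts, with 0.66 and -0.04. SAMD9 and SAMD9L lie 12032 bases apart, with 0.71 and 1.30. The intervals (95%) at 120 h of MX2 (0.39 to 2.75) and MX1 (-1.81 to 0.03) were apart, and those within each other pair named overlapped. Differences between neighbours were not tested.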
